A study of Mus musculus with 7 samples.

Results

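Genes of inflammasome signalling, pyroptosis and necroptosis were followed in lung dendritic cells of mice, namely Casp1, Casp4, Nlrp3, Pycard, Gsdmd, Nod1, Nod2, Casp8, Ripk3 and Mlkl. They were chosen by symbol: a probeset counted when the platform annotation gave it exactly 1 gene symbol and that symbol was a listed gene, with the brightest probeset kept where a gene had several. All 10 were found, each with 1 probeset, among the 19939 genes measured. Each of 7 Affymetrix Mouse Gene 1.0 ST arrays held RNA of CD11b+ conventional dendritic cells (cDC2s) pooled from the lungs of 10 mice and gated on CD11c, MHC-II and CD11b and against Ly6C and CD64, 12 hours after treatment. The groups were Irf3-deficient mice given 100 µg of house dust mite extract (3 arrays), wild type mice given the same dose (2 arrays) and wild type mice given saline, PBS (2 arrays). All were female and of C57Bl/6 background. The Irf3 allele, the age of the mice and the route of treatment are not given in the sources used here, and Irf3-deficient mice given PBS were not analysed here.

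These genes encode several routes by which a cell that senses microbial products or damage can release inflammatory cytokines or lyse. Inflammasome sensors such as NLRP3 recruit the adaptor ASC, the product of Pycard, to activate caspase-1, which matures IL-1β and IL-18 and cuts gasdermin D into a fragment that forms membrane pores; mouse Casp4 encodes the protease also called caspase-11, which senses cytosolic lipopolysaccharide and cuts gasdermin D itself. NOD1 and NOD2 sense fragments of bacterial peptidoglycan in the cytosol and signal through the kinase RIPK2 to NF-kB. In necroptosis the kinase RIPK3 phosphorylates MLKL, which then disrupts the plasma membrane, while caspase-8 restrains this route. IRF3, a transcription factor activated downstream of cytosolic nucleic acid sensors and of TLR3 and TLR4, drives type I interferon production, and several genes of these pathways are known interferon targets in macrophages.

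Promoter windows were available from RefSeq (GRCm38.p6) for 9 of the 10 genes, in 12 windows, and Gsdmd had none. Each window held 300 bases, from 250 before to 50 after an annotated transcription start. For each of Nod1, Casp4, Nlrp3 and Mlkl, all genes with changes described below, 1 window is shown, because these windows differ in the letters they hold. Capitals mark matches on either strand to the GAS motif TTCNNNGAA, bound by STAT factors, or to the NF-kB consensus; the interferon-stimulated response element core GAAANNGAAA was also searched on both strands. The windows are given 5′ to 3′ on the strand of the gene, chr6:54971612-54971911 (minus strand) for Nod1, chr9:5308599-5308898 (plus) for Casp4, chr11:59541319-59541618 (plus) for Nlrp3 and chr8:111338156-111338455 (minus) for Mlkl.
Nod1: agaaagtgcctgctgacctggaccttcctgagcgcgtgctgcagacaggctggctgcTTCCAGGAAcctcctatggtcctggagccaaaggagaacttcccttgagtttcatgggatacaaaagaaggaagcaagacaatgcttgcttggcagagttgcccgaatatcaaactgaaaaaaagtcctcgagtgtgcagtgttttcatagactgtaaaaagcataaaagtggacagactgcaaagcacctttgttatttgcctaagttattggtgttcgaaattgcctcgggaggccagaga
Casp4: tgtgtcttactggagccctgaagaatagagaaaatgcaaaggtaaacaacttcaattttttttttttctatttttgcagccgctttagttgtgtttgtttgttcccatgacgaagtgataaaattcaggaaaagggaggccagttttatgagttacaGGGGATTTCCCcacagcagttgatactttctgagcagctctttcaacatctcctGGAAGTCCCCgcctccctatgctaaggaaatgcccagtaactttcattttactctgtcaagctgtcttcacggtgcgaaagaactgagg
Nlrp3: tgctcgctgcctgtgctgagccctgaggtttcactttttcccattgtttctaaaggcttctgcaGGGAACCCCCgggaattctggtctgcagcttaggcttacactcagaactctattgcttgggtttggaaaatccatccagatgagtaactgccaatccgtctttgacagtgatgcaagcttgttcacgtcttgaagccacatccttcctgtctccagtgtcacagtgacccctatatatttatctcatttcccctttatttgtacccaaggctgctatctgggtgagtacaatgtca
Mlkl: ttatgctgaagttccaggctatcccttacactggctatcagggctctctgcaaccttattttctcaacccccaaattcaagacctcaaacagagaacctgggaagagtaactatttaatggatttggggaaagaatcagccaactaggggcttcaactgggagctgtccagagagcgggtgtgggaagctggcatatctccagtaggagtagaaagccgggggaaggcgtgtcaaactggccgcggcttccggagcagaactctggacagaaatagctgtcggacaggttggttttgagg
The response element core was in none of the 12 windows, against 3.44% of all 32851 windows. With so low a share, finding none in 12 windows does not show a lack of it in these genes. The GAS motif was in 1 window, the one printed for Nod1, at position -193 from the start, against 8.30% of all windows. The NF-kB consensus was in 3 windows, against 8.46% of all windows. It was in the Nlrp3 window printed, at -186, and in both overlapping windows of Casp4. In the Casp4 window printed 2 matches at -93 and -92 overlap and another lies at -39. The Mlkl window held none of these motifs, nor did the other window of Nod1 (chr6:54972563-54972862) or that of Nlrp3 (chr11:59542436-59542735). A match is a description of letters and not a binding site, and these windows leave out the rest of each gene.

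The deposited values are log2 expression levels, and differences are in log2 units unless a fold is given. Array medians lay between 7.60 and 7.69, and array pairs correlated at 0.995 to 0.997 within groups and 0.973 to 0.990 between groups. The 3 treated Irf3-deficient arrays had Irf3 levels of 8.26, 8.13 and 8.30, the treated wild type arrays 9.59 and 9.57, and the PBS-treated wild type arrays 9.48 and 9.56. Irf3 was 2.55-fold lower in the treated Irf3-deficient than in the treated wild type cells (95% interval 2.18 to 2.99, adjusted p = 2.11e-06), in the direction of the labels. All 10 cDC2 markers examined were above the 25th percentile of genes in all 7 arrays, and so were all 13 monocyte and macrophage, 8 cDC1 and 9 epithelial, endothelial and stromal markers measured. Of 12 neutrophil markers, 7 were above that percentile in all arrays and 4, S100a8, Ly6g, Mmp8 and Ngp, were below it in all. Of 9 T and NK cell markers 5 were above and 4 below it in all arrays, and of 7 B cell and plasmacytoid dendritic cell markers 4 were above and 1 below. Most genes lie above that percentile by its definition, so passing it does not show that a cell type was present. Markers that differed between the groups are given with Nlrp3 below, some as counts only. In a bulk pool, fewer cells of a type and less RNA per cell cannot be told apart, and p-values measure the spread between pools.

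In wild type cells, 5 of the 10 genes rose after house dust mite (Mlkl, Nod1, Casp4, Gsdmd and Casp1) and 1, Nlrp3, fell. In treated Irf3-deficient against treated wild type cells the same 5 genes were lower and Nlrp3 was higher. A gene was called at a limma adjusted p under 0.05, with Benjamini-Hochberg adjustment over all 19939 genes. By that rule 8.35% of all genes rose and 9.23% fell after house dust mite in wild type cells, while 10.7% were higher and 9.0% lower in treated Irf3-deficient than in treated wild type cells. The median difference of the 10 was 0.45 for the wild type response, against 0.03 over all genes, and -0.36 between the treated genotypes, against 0.00 over all genes. Both comparisons use the 2 treated wild type arrays, with opposite sign, so an opposite pattern between them is partly built in. In treated Irf3-deficient against PBS-treated wild type cells 1 of the 10, Mlkl, was higher and 0 were lower, where 5.89% of all genes were higher and 4.90% lower. At an unadjusted p under 0.05 limma gave 2 of the 10 higher, Mlkl and Casp8, and 0 lower. By that rule 2469 of all 19939 genes were higher and 2104 lower. By limma's F test over the 3 groups 6 of the 10 differed, against 25.5% of all genes.

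**Figure D1:**
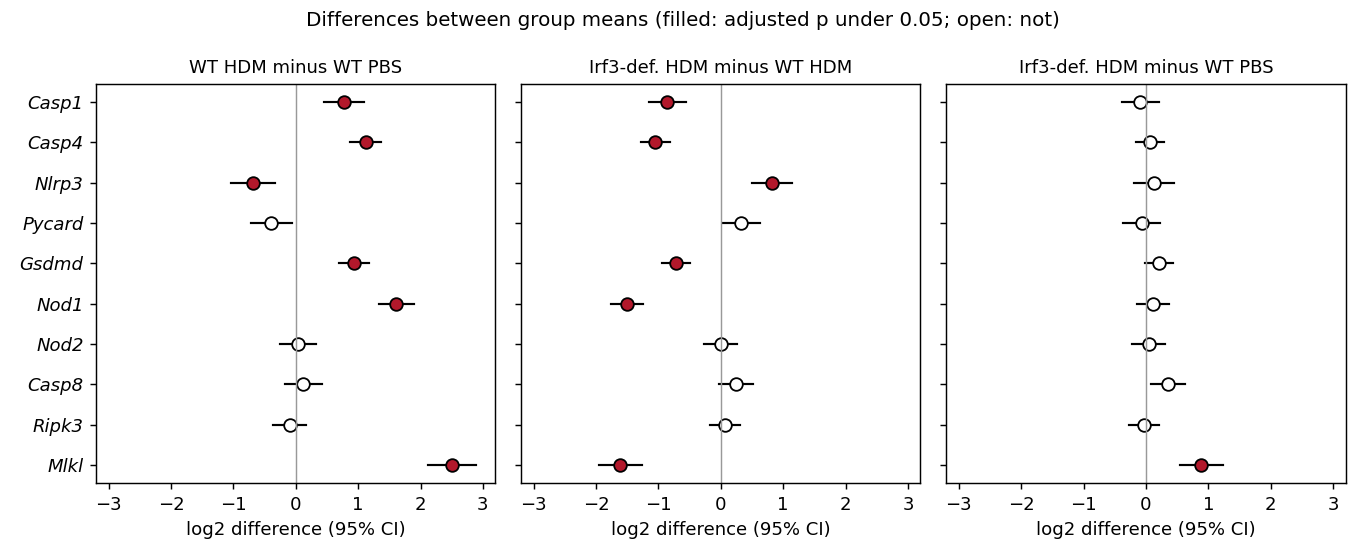
Log2 differences (horizontal axis) of the 10 genes (rows) in the 3 comparisons, with 95% confidence intervals as bars and filled points where the adjusted p is under 0.05. Mlkl, Nod1, Casp4, Gsdmd and Casp1 lie right of 0 for wild type house dust mite against PBS and left of 0 for treated Irf3-deficient against treated wild type. Nlrp3 lies on the opposite side in each, and only Mlkl is filled for treated Irf3-deficient against PBS-treated wild type.

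Casp1 and Casp4, the inflammatory caspases, and Gsdmd, the pore-forming substrate of both, were highest in treated wild type cells. Casp4 stood at 10.62, 10.89 and 10.71 in treated Irf3-deficient mice, 11.80 and 11.78 in treated wild type mice, and 10.61 and 10.74 in PBS-treated wild type mice. Both treated wild type arrays lay above the other 5, whose 2 groups overlapped. Casp4 rose 2.17-fold after house dust mite in wild type cells (95% interval 1.82 to 2.59, adjusted p = 2.32e-05). It was 2.07-fold lower in treated Irf3-deficient than in treated wild type cells (1.77 to 2.43, adjusted p = 2.17e-05).

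Casp1 had levels of 9.39, 9.68 and 9.37 in treated Irf3-deficient mice, 10.21 and 10.47 in treated wild type mice, and 9.71 and 9.42 in PBS-treated wild type mice. It had the smallest rise of the 5, 1.71-fold (1.36 to 2.14, adjusted p = 0.00281). The treated Irf3-deficient cells were 1.81-fold lower than the treated wild type cells (1.48 to 2.23, adjusted p = 0.000671). As for Casp4, the treated wild type arrays stood apart and the other 2 groups overlapped. Casp1 and Casp4 are neighbours on mouse chromosome 9 with 0 coding genes between them in the RefSeq annotation; as related sequences they could share probe signal, which was not tested. The next gene of the cluster, Casp12, was measured at 5.13 to 5.46, below the 25th percentile of genes (6.59 to 6.76), and passed no comparison, with adjusted p of 0.282 to 0.885.

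Gsdmd was at 9.49, 9.53 and 9.45 in treated Irf3-deficient mice, 10.20 and 10.23 in treated wild type mice, and 9.36 and 9.20 in PBS-treated wild type mice. Its 3 groups did not overlap, with the treated Irf3-deficient arrays between the others. It rose 1.91-fold in wild type cells (1.61 to 2.27, adjusted p = 8.48e-05), and was 1.65-fold lower in treated Irf3-deficient than in treated wild type cells (1.42 to 1.93, adjusted p = 0.000309). The gap between treated Irf3-deficient and PBS-treated wild type cells, 0.21 (-0.02 to 0.43), missed the threshold (adjusted p = 0.256).

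**Figure D2:**
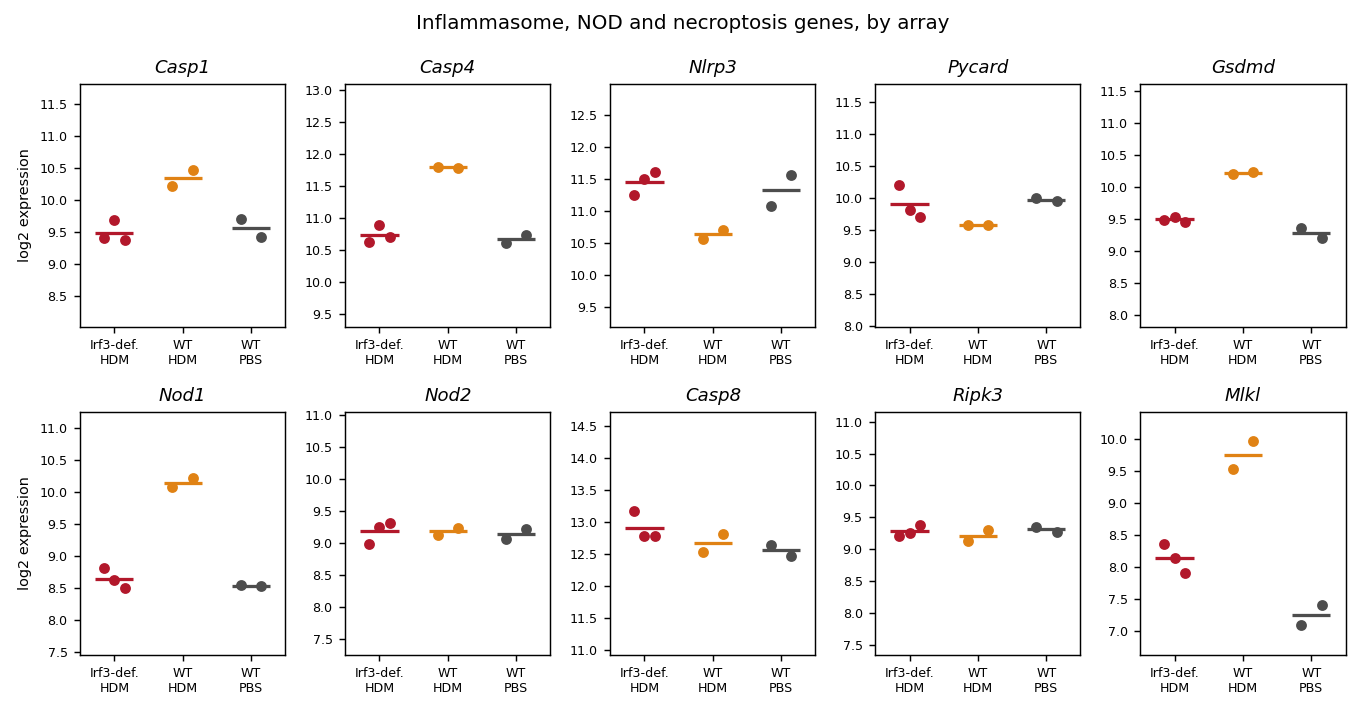
Log2 expression level (vertical axis) of each of the 10 genes, 1 panel per gene, with dots for arrays and lines for group means; Irf3-deficient house dust mite arrays are on the left, wild type house dust mite in the middle and wild type PBS on the right. In the panels of Casp1, Casp4, Gsdmd, Nod1 and Mlkl the 2 treated wild type arrays lie above the other 5, and for Nlrp3 they lie lowest.

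Nlrp3, the sensor, moved the other way from Casp1, whose product it can activate through ASC. It stood at 11.25, 11.51 and 11.62 in treated Irf3-deficient mice, 10.57 and 10.71 in treated wild type mice, and 11.08 and 11.57 in PBS-treated wild type mice. Both treated wild type arrays were below the other 5, and the other 2 groups overlapped. Nlrp3 fell 1.61-fold after house dust mite in wild type cells (1.26 to 2.05, adjusted p = 0.00973). That call rested on PBS replicate 2, the brighter of its pair: without it the difference was -0.44 and the adjusted p 0.115. In treated Irf3-deficient cells Nlrp3 was 1.76-fold higher than in treated wild type cells (1.41 to 2.20, adjusted p = 0.00156), a call kept under all 14 alternatives, with adjusted p up to 0.0119.

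Pycard, whose product ASC links the sensor to caspase-1, was also lowest in treated wild type cells but passed neither test. Its levels were 10.20, 9.81 and 9.70 in treated Irf3-deficient mice, 9.58 in both treated wild type arrays, and 10.00 and 9.95 in PBS-treated wild type mice. The treated wild type arrays were again the lowest 2 of the 7. The differences were -0.39 (-0.72 to -0.07, adjusted p = 0.100) for house dust mite in wild type and 0.33 (0.03 to 0.62, adjusted p = 0.128) for treated Irf3-deficient against treated wild type. With adjusted p near the threshold, the first passed without Irf3-deficient replicate 1, at 0.0240.

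The summed level of monocyte and macrophage markers was, like that of Nlrp3, lowest in treated wild type cells. The summed linear level of 13 of 14 markers measured was 46555 to 48205 in treated Irf3-deficient arrays, 23531 to 30196 in treated wild type arrays and 54767 to 65823 in PBS-treated wild type arrays. After house dust mite in wild type cells 12 of the 13 fell and 1 rose; in treated Irf3-deficient against treated wild type cells 10 were higher and 2 lower. The 1 that rose was Fcgr1, which encodes the CD64 used to gate these cells out, by 1.79 (adjusted p = 2.19e-05). None of the 13 was below the 25th percentile of genes in any array. The part of these markers in the Nlrp3 result was not tested.

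Some markers of other lists also moved with the groups. After house dust mite in wild type cells 2 of 8 cDC1 markers rose and 3 fell. Of 7 alveolar macrophage markers 2 rose and 3 fell, and of 9 epithelial, endothelial and stromal markers 0 rose and 5 fell. Between the treated genotypes 1 cDC1 marker was higher in Irf3-deficient cells and 3 lower. For the alveolar macrophage markers these counts were 1 and 0, and for the epithelial, endothelial and stromal markers 1 and 1. Shares of all genes called are given above. Among the cDC2 markers, Itgam, which encodes the CD11b of the gate, fell by 1.06 in wild type cells (adjusted p = 1.94e-05) and was 0.72 higher in treated Irf3-deficient than in treated wild type cells (adjusted p = 0.000225). Cd209a moved the same way, by -0.41 and 0.45, and Zbtb46 the opposite way, by 0.38 and -0.49. Itgax was called only between the treated genotypes, higher by 0.31 in Irf3-deficient cells (adjusted p = 0.0179). Of the 12 neutrophil markers, Cxcr2 and Mmp9 were higher in treated Irf3-deficient than in treated wild type cells, by 1.00 (adjusted p = 0.000845) and 1.04 (adjusted p = 0.0303). S100a8, S100a9 and Ly6g differed there in the other direction, by -0.405, -0.369 and -0.273, without being called (adjusted p = 0.0506, 0.0627 and 0.0683). In wild type cells Ly6g and Elane rose after house dust mite, by 0.36 (adjusted p = 0.0348) and 0.34 (adjusted p = 0.0476).

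The summed linear level of 9 T and NK cell markers was 1527 to 1812 in treated Irf3-deficient arrays. It was 1910 to 1930 in treated wild type and 1671 to 1819 in PBS-treated wild type arrays. Cd8a, with the largest rise of the 9, had mean log2 levels of 8.446, 9.465 and 8.052 in these groups. The sum without Cd8a was not taken, so the higher sum in treated wild type arrays does not describe the whole list. Cd8a, Ncr1 and Nkg7 rose in wild type cells, by 1.41, 0.51 and 0.44, and were lower in treated Irf3-deficient than in treated wild type cells, by -1.02, -0.49 and -0.62. Cd4 went the other way, by -1.02 (adjusted p = 0.000622) and 0.58 (adjusted p = 0.0122). Klrb1c was higher by 0.34 in treated Irf3-deficient than in treated wild type cells (adjusted p = 0.0149). Cd3e, Cd3g, Cd3d and Prf1 passed no comparison. Ncr1 and Klrb1c were below the 25th percentile of genes in all 7 arrays. The sum of 7 B cell and plasmacytoid dendritic cell markers was 2427 to 2545 in treated Irf3-deficient, 5271 to 5476 in treated wild type and 1723 to 2087 in PBS-treated wild type arrays. Without Bst2, itself a known interferon-stimulated gene, the other 6 summed to 1534 to 1646 in treated Irf3-deficient, 863 to 1018 in treated wild type and 993 to 1172 in PBS-treated wild type arrays, so the high sum in treated wild type arrays was that of Bst2. Ccr9 was 2.60 higher in treated Irf3-deficient than in treated wild type cells (adjusted p = 5.58e-08). Ms4a1, below the 25th percentile of genes in 6 of 7 arrays, rose by 0.62 in wild type cells (adjusted p = 0.00601). It was lower by -0.895 in treated Irf3-deficient than in treated wild type cells (adjusted p = 0.00023). The part of these markers in the results was not tested.

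The 2 NOD receptors differed from each other. Nod1 was at 8.82, 8.63 and 8.49 in treated Irf3-deficient mice, 10.08 and 10.22 in treated wild type mice, and 8.54 and 8.53 in PBS-treated wild type mice. The treated wild type arrays stood more than 1 log2 unit above all others, and the other 2 groups overlapped. Nod1 rose 3.06-fold after house dust mite in wild type cells (2.52 to 3.72, adjusted p = 2.37e-06), ranking 185 of 19939 by size of increase. In treated Irf3-deficient cells it was 2.83-fold lower than in treated wild type cells (2.37 to 3.38, adjusted p = 2.29e-06), and its difference from PBS-treated wild type was 0.11 (-0.15 to 0.37, adjusted p = 0.651).

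Nod2 stood at 8.99, 9.26 and 9.31 in treated Irf3-deficient mice, 9.13 and 9.24 in treated wild type mice, and 9.07 and 9.22 in PBS-treated wild type mice. All 3 groups overlapped. Its differences were 0.04 (-0.25 to 0.33) for house dust mite in wild type cells, 0.00 (-0.26 to 0.27) between the treated genotypes, and 0.04 (-0.22 to 0.31) for treated Irf3-deficient against PBS-treated wild type. The adjusted p-values were 0.889, 0.996 and 0.884. These intervals leave room for changes of up to about 0.3 log2 units in either direction.

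Mlkl, the executioner of necroptosis, had the widest range of the 10. Its levels were 8.36, 8.15 and 7.92 in treated Irf3-deficient mice, 9.53 and 9.97 in treated wild type mice, and 7.09 and 7.41 in PBS-treated wild type mice. The 3 groups did not overlap, with the treated Irf3-deficient arrays in between. Mlkl rose 5.65-fold in wild type cells (4.34 to 7.37, adjusted p = 7.47e-07), ranking 65 of 19939 by size of increase. It was 3.05-fold lower in treated Irf3-deficient than in treated wild type cells (2.40 to 3.89, adjusted p = 1.98e-05). It was also 1.85-fold higher in treated Irf3-deficient than in PBS-treated wild type cells (1.45 to 2.36, adjusted p = 0.00383). Without PBS replicate 1, the dimmer of its pair, that last difference was 0.73 with an adjusted p of 0.0781. Genotype and treatment both differ between those groups and cannot be told apart there.

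The kinase upstream, Ripk3, showed no called difference. It was at 9.20, 9.26 and 9.38 in treated Irf3-deficient mice, 9.12 and 9.31 in treated wild type mice, and 9.35 and 9.28 in PBS-treated wild type mice, with all groups overlapping. Its differences were -0.10 (-0.36 to 0.17, adjusted p = 0.677) for house dust mite in wild type cells and 0.06 (-0.17 to 0.30, adjusted p = 0.794) for treated Irf3-deficient against treated wild type.

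Casp8, whose protease starts death receptor apoptosis and holds necroptosis in check, was at 13.17, 12.79 and 12.78 in treated Irf3-deficient mice, 12.54 and 12.81 in treated wild type mice, and 12.64 and 12.47 in PBS-treated wild type mice. The treated Irf3-deficient arrays were all above the PBS-treated ones and overlapped the treated wild type ones. The difference from PBS-treated wild type was 0.36 (0.08 to 0.63), with an unadjusted p of 0.0147 and an adjusted p of 0.0985. The other differences were 0.12 (-0.18 to 0.42, adjusted p = 0.650) for house dust mite in wild type cells and 0.24 (-0.04 to 0.51, adjusted p = 0.249) for treated Irf3-deficient against treated wild type.

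The treated Irf3-deficient cells were not called different from PBS-treated wild type in the other inflammasome genes either, with differences of -0.09 for Casp1 (-0.38 to 0.21, adjusted p = 0.777), 0.07 for Casp4 (-0.16 to 0.30, adjusted p = 0.779), 0.13 for Nlrp3 (-0.19 to 0.45, adjusted p = 0.666) and -0.06 for Pycard (-0.36 to 0.23, adjusted p = 0.839). Such intervals do not show that the groups were alike. As a yardstick, 11 of 12 interferon-stimulated genes were measured, and all 11 rose in treated wild type cells (median 4.04), were lower in treated Irf3-deficient than in treated wild type cells (median -2.64) and were higher in treated Irf3-deficient than in PBS-treated wild type cells (median 1.45). The last count was 8 without PBS replicate 1 and 9 without PBS replicate 2 or Irf3-deficient replicate 2, and Stat2, Usp18 and Dhx58 lost that call under 7, 3 and 1 of 14 alternatives. Of the genes that rose in wild type cells, Mlkl was the 1 of the 5 that was also called in that last comparison.

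Around the 10 genes, 68 of 75 other genes in 6 lists of these pathways had a probeset of their own; Ripk1 and Ripk2 were among those without one. Inhibitors of cell death moved most often: 8 of 11 rose and 0 fell after house dust mite in wild type cells (median 0.60), while 0 were higher and 8 lower in treated Irf3-deficient than in treated wild type cells (median -0.53). The first count of 8 was 5 without PBS replicate 2 or without treated wild type replicate 2, and the second was 5 without treated wild type replicate 2. In treated Irf3-deficient against PBS-treated wild type cells 4 were higher and 0 lower. The counts of this list and of those below stand beside the shares of all genes called given above.

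**Figure D3:**
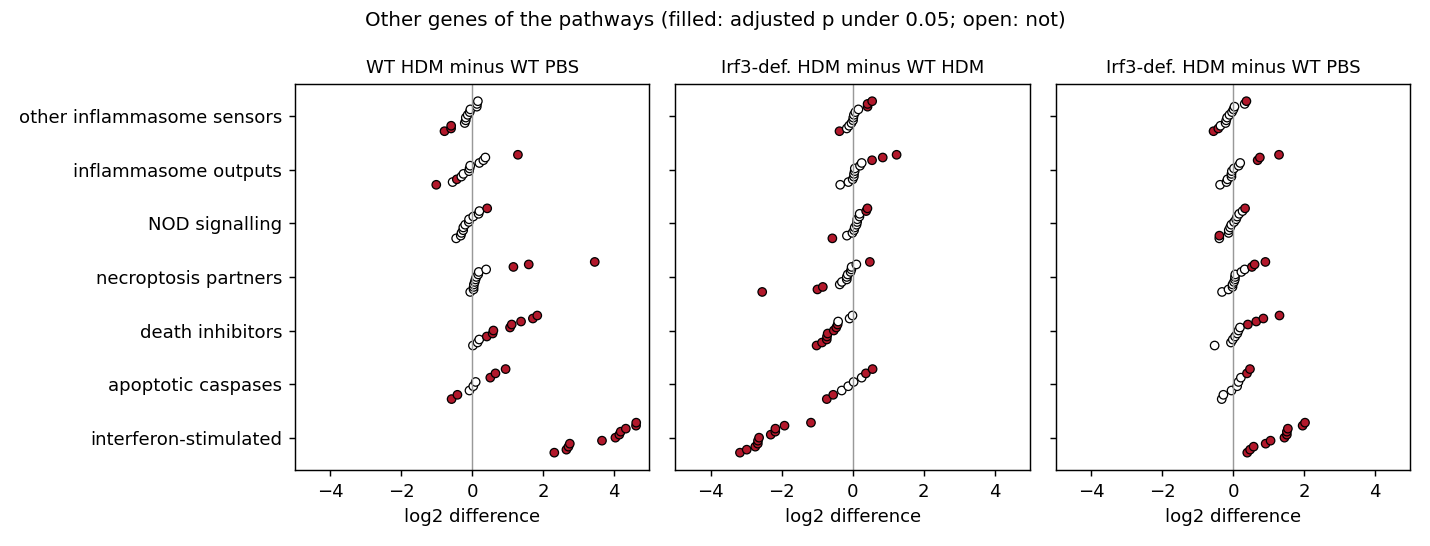
Log2 differences (horizontal axis) of the measured genes of the 6 pathway lists, and of the interferon-stimulated genes in a row of their own, in the 3 comparisons. Each point is a gene, filled where the adjusted p is under 0.05. Of the 11 death inhibitors, 8 are filled to the right for wild type house dust mite against PBS and 8 to the left for treated Irf3-deficient against treated wild type.

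Serpinb9, an inhibitor of granzyme B, stood at 12.37, 12.48 and 12.48 in treated Irf3-deficient mice, 13.07 and 12.88 in treated wild type mice, and 11.10 and 11.17 in PBS-treated wild type mice. The 3 groups did not overlap. It rose by 1.84 in wild type cells (adjusted p = 8.75e-08) and was higher by 1.31 in treated Irf3-deficient than in PBS-treated wild type cells (adjusted p = 4.46e-06). Serpinb6b, a serpin from a family of close copies whose probes may be shared, rose by 1.71 (adjusted p = 3.37e-07) and was also higher in treated Irf3-deficient than in PBS-treated wild type cells, by 0.85 (adjusted p = 0.000252). Traf2, an adaptor of TNF receptors that recruits cIAP proteins, had no such step: it stood at 9.07, 9.15 and 9.31 in treated Irf3-deficient mice, 10.27 and 10.12 in treated wild type mice, and 9.07 and 9.17 in PBS-treated wild type mice. It was lower by -1.02 in treated Irf3-deficient than in treated wild type cells (adjusted p = 4.86e-05).

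Of 13 partners in necroptosis and linear ubiquitin signalling, 3 rose and 0 fell in wild type cells, and the same 3, Zbp1, Fas and Rnf31, were lower in treated Irf3-deficient than in treated wild type cells. Zbp1, a nucleic acid sensor that binds RIPK3, was at 10.40, 10.31 and 10.04 in treated Irf3-deficient mice, 12.74 and 12.86 in treated wild type mice, and 9.36 and 9.32 in PBS-treated wild type mice. Its 3 groups did not overlap and lay in the order seen for Mlkl. Zbp1 rose by 3.46 in wild type cells (adjusted p = 5.18e-09), was lower by -2.55 in treated Irf3-deficient than in treated wild type cells (adjusted p = 3.64e-08), and was higher by 0.91 than in PBS-treated wild type cells (adjusted p = 0.000449).

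Fas, a death receptor, rose by 1.60 (adjusted p = 1.83e-06) and was lower by -0.99 in treated Irf3-deficient than in treated wild type cells (adjusted p = 5.93e-05). Rnf31, the catalytic part of the linear ubiquitin ligase, was chosen after its values were seen, to complete the count; it rose by 1.17 (adjusted p = 2.88e-05) and was lower by -0.84 in treated Irf3-deficient than in treated wild type cells (adjusted p = 0.000209). Fadd, the adaptor of death receptors, was the 1 partner higher in treated Irf3-deficient than in treated wild type cells, by 0.49 (adjusted p = 0.0123); without treated wild type replicate 1 its adjusted p was 0.0939. In treated Irf3-deficient against PBS-treated wild type cells 3 partners were higher, Zbp1, Fas and Fadd, and 0 lower; Fas lost that call without PBS replicate 1 (adjusted p = 0.0769) and Fadd without PBS replicate 2 (0.120).

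Of 12 other genes of inflammasome sensing measured, which include the adaptor Nlrc4, the NLRP3 partner Nek7 and Casp12, 0 rose and 3 fell in wild type cells by limma (at an unadjusted p under 0.05 also 0 and 3), and 3 were higher and 1 lower in treated Irf3-deficient than in treated wild type cells. Nlrc4, the adaptor of the NAIP sensors, was at 7.60, 7.59 and 7.56 in treated Irf3-deficient mice, 7.61 and 7.48 in treated wild type mice, and 8.19 and 8.09 in PBS-treated wild type mice. Both treated groups lay below the PBS arrays and overlapped each other. It fell by 0.59 in wild type cells (adjusted p = 0.00202) and was lower by -0.55 in treated Irf3-deficient than in PBS-treated wild type cells (adjusted p = 0.00352). Nlrp1b fell by 0.78 (adjusted p = 0.00129). Nlrp1a, a close copy whose probes may be shared, fell by 0.59 (adjusted p = 0.0155), a call lost without PBS replicate 2 (adjusted p = 0.106) and without treated wild type replicate 2 (0.104); it was chosen after its values were seen. Of the 4 calls between the treated groups, that of Nek7, which binds NLRP3 and was higher by 0.55 (adjusted p = 0.00248), was kept under all 14 alternatives; Nlrp1a, Nlrp1b and Naip5 lost theirs under 9, 4 and 7 of them.

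Among 12 genes of inflammasome output and upstream channels, 1 rose and 2 fell in wild type cells, and 3 were higher and 0 lower in treated Irf3-deficient than in treated wild type cells. P2rx7, the ATP-gated channel upstream of NLRP3, stood at 10.06, 10.00 and 9.85 in treated Irf3-deficient mice, 9.01 and 9.23 in treated wild type mice, and 10.04 and 10.22 in PBS-treated wild type mice. It was low in the treated wild type arrays alone, as Nlrp3 was. P2rx7 fell by 1.01 in wild type cells (adjusted p = 0.000134) and was higher by 0.85 in treated Irf3-deficient than in treated wild type cells (adjusted p = 0.000257). Il1a, which encodes IL-1α, was at 12.47, 12.77 and 12.99 in treated Irf3-deficient mice, 11.18 and 11.82 in treated wild type mice, and 11.84 and 12.26 in PBS-treated wild type mice. Il1a was higher by 1.24 in treated Irf3-deficient than in treated wild type cells (limma adjusted p = 0.000478). Its difference after house dust mite in wild type cells, -0.55, was not called (limma adjusted p = 0.0929). Unlike P2rx7, Il1a was also higher in treated Irf3-deficient than in PBS-treated wild type cells, by 0.69 (limma adjusted p = 0.0339). That call was lost under 4 of 14 alternatives. The remaining calls in these counts were Txnip, which fell in wild type cells and lost its call under 6 of 16 alternatives, and Ninj1, whose product ruptures the membrane of dying cells, higher in treated Irf3-deficient than in treated wild type cells and lost under 5 of 14.

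Il1rn, the IL-1 receptor antagonist, was high in both treated groups. It stood at 12.13, 12.24 and 12.36 in treated Irf3-deficient mice, 12.11 and 12.38 in treated wild type mice, and 10.66 and 11.24 in PBS-treated wild type mice, and rose by 1.29 in wild type cells (adjusted p = 0.000119). It was also higher by 1.29 in treated Irf3-deficient than in PBS-treated wild type cells (adjusted p = 0.000216). The caspase-1 substrates Il1b and Il18, chosen after their values were seen, passed none of the 3 comparisons. Il1b was at 13.72, 14.01 and 13.96 in treated Irf3-deficient mice, 13.62 and 13.77 in treated wild type mice, and 13.72 and 13.77 in PBS-treated wild type mice, and its adjusted p-values were 0.142 to 0.794.

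**Figure D4:**
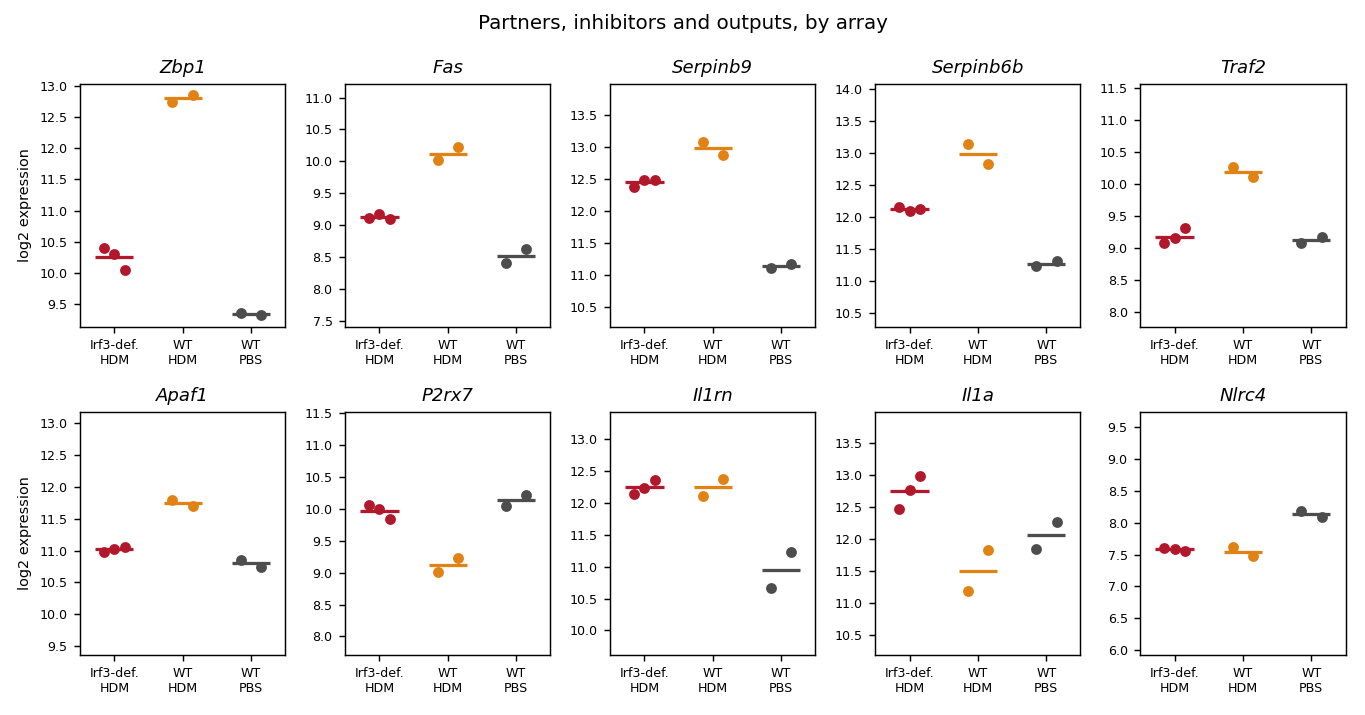
Log2 expression level (vertical axis) of 10 partner genes, 1 panel per gene, with dots for arrays and lines for group means; Irf3-deficient house dust mite arrays are on the left, wild type house dust mite in the middle and wild type PBS on the right. Zbp1 and Serpinb9 form 3 separate levels, P2rx7 is low in treated wild type arrays, and Il1rn is high and Nlrc4 low in both treated groups.

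Of 12 NOD receptor adaptors, peptide transporters and modulators, 1 rose and 0 fell in wild type cells, and 2 were higher and 1 lower in treated Irf3-deficient than in treated wild type cells. At an unadjusted p under 0.05 limma gave 2 higher and 2 lower in wild type cells. Slc15a4, a lysosomal peptide and histidine transporter, was the 1 lower, by -0.57 (adjusted p = 0.000995), and that call was kept under all 14 alternatives. The other calls, of Tab3 in wild type cells and of Slc15a2 and Map3k7 between the treated groups, were lost under 7 of 16, 5 of 14 and 4 of 14 alternatives.

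Apoptosis genes were mixed, with 3 of 8 rising and 2 falling in wild type cells, and 2 higher and 2 lower in treated Irf3-deficient than in treated wild type cells. Apaf1, the scaffold of the apoptosome, was at 10.98, 11.02 and 11.05 in treated Irf3-deficient mice, 11.79 and 11.70 in treated wild type mice, and 10.85 and 10.75 in PBS-treated wild type mice. It rose by 0.95 in wild type cells (adjusted p = 3.18e-05) and was lower by -0.73 in treated Irf3-deficient than in treated wild type cells (adjusted p = 0.000142). Htra2, a mitochondrial protease, rose by 0.66 (adjusted p = 0.000939) and was lower by -0.55 in treated Irf3-deficient than in treated wild type cells (adjusted p = 0.00166). The calls for Casp2 and Casp6, apoptotic caspases that fell by 0.58 (adjusted p = 0.0264) and 0.41 (adjusted p = 0.0464) in wild type cells, were lost under 3 and 9 of 16 alternatives; without treated wild type replicate 2 the adjusted p-values were 0.234 and 0.351. The 2 higher between the treated groups were Casp6, by 0.56 (adjusted p = 0.00469), and Diablo, by 0.37 (adjusted p = 0.036); without treated wild type replicate 2 neither was called, with adjusted p-values of 0.0741 and 0.334, and Diablo lost its call under 5 of 14 alternatives.

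The genes closest to the 3 most variable of the 10 were found by Euclidean distance over the 7 arrays, on log2 values centred on each gene's mean. Mlkl was nearest to Ddx58 (distance 0.33), which encodes the RNA sensor RIG-I, then Irgm1 (0.45) and Ube2l6 (0.49), both known interferon-induced genes. Nod1 was nearest to Selenow (0.16), Dck (0.21) and Trim21 (0.24), and Casp4 to Ilrun (0.20), Irf1 (0.23) and Chpt1 (0.25). Ddx58 differed by 2.47 between treated and PBS-treated wild type cells, where Mlkl differed by 2.50. In the treated Irf3-deficient against the PBS-treated wild type cells the differences were 0.76 for Ddx58 and 0.89 for Mlkl. These distances describe the 7 arrays and carry no test.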

How the data were processed

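The values analysed are the log2 expression values of 35556 probesets that the authors deposited for 7 arrays; per the submitters' processing notes R 3.2.1, oligo and RMA were among the tools, with no role or order given. RMA usually makes array distributions alike, so a change shared by most genes could not be seen. Of the probesets, 21789 carried 1 symbol, 1621 several and 12146 were not listed in the platform annotation. Symbols were updated through RefSeq GRCm38.p6 (19856 of 19939 genes matched), keeping the brightest probeset of the 998 genes with several. No build, scan batch or detection call is given in the sources used here, and precision is limited by the number of arrays.

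Groups came from sample titles. Differences were tested in R 4.3.3 with limma 3.58.1 (lmFit, eBayes with trend, two-sided) on all 7 arrays with 1 mean per group, 4 residual degrees of freedom and Benjamini-Hochberg adjustment over all genes; intervals are 95%. The code was tested on simulated data. The 10 genes, the lists and the motifs were chosen with earlier results of these data known. From each other list, the rule picked up to 2 called genes per direction and comparison with the smallest p. Not all genes picked are named here, and some genes outside the rule are named, not all of them marked. The 3 nearest genes of the 3 members with the largest F were also named. Alternatives were eBayes without trend, median centring, a filter on dim genes (above the array's 25th percentile in at least 2 arrays), only the compared groups, a replicate block, all probesets or probeset means, and each array left out; 2 pairings of the wild type arrays were added after seeing the data.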

Additional observations from a re-analysis of the deposited data

How the results depend on the processing

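The 5 genes that rose in wild type cells, the 5 lower and 1 higher in treated Irf3-deficient than in treated wild type cells, and the 6 differing among groups were called in these numbers under every alternative run. The count of 1 falling in wild type cells ranged from 0 to 2 when single arrays were left out: 0 without PBS replicate 2 (Nlrp3) and 2 without Irf3-deficient replicate 1 (Pycard). The count of 1 higher in treated Irf3-deficient than in PBS-treated wild type cells ranged from 0 to 1, with 0 without PBS replicate 1 (Mlkl). Signs reversed only for differences that were not called. For treated Irf3-deficient against treated wild type, Nod2 was -0.019 with arrays centred on their median and -0.062 with the replicate block; against PBS-treated wild type, the replicate block gave 0.036 for Pycard and -0.021 for Nod2. Leaving out single arrays gave ranges of -0.033 to 0.116 for Nod2 and -0.02 to 0.258 for Casp8 in wild type cells, and of -0.062 to 0.1 for Nod2 and -0.027 to 0.156 for Ripk3 between the treated groups. Against PBS-treated wild type these ranges were -0.228 to 0.054 for Casp1, -0.008 to 0.134 for Casp4, -0.113 to 0.379 for Nlrp3, -0.212 to 0.036 for Pycard, -0.031 to 0.142 for Nod2 and -0.081 to 0.008 for Ripk3. The cause was not tested.

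Replicate numbers showed no sign of pairing the arrays. Deviations of same-numbered arrays correlated at -0.233 between the wild type groups, 0.178 and -0.09 between Irf3-deficient and PBS arrays, and -0.031 and -0.025 between the treated groups. With 2 arrays per wild type group the crossed numbers give the mirror value, 0.233. Such correlations cannot show that the arrays were unpaired, and the sources used here do not say. The replicate block changed no call among the 10 genes; over all genes it left 800 higher and 626 lower, against 1175 and 978 without it, in treated Irf3-deficient against PBS-treated wild type cells. Crossing the numbers of the wild type arrays, chosen after seeing the data, gave 2017 higher and 2311 lower genes, against 1486 and 1689 with the numbers as given, and 2 of the 10 genes falling. Over all genes, counts moved by more than 1.5 times without PBS replicate 1 (479 higher and 270 lower against PBS-treated wild type; 1178 lower in wild type), without PBS replicate 2 (722 higher against PBS-treated wild type), without treated wild type replicate 2 (1086 lower in wild type; 1276 higher between the treated groups) and without Irf3-deficient replicates 2 or 3 (547 and 613 lower against PBS-treated wild type). The number of arrays limits what can be called.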
